A study of Homo sapiens with 9 samples.

Results

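The nuclear genes of the mitochondrial respiratory chain and of the ATP synthase were followed in MV4-11 cells through the authors' comparisons of treated cells with DMSO. Members were the rows of the deposited table whose symbol names a subunit of complexes I to IV, of the ATP synthase, cytochrome c1 or cytochrome c, with pseudogenes left out. This gave 72 of the 13410 genes of the table. Of these, 66 were counted as subunits or cytochrome c, and 6 match by name only or have another role: COX4NB (now EMC8, a part of the ER membrane complex), ATP5S and ATP5SL, the paralogue NDUFA4L2, the supercomplex factor COX7A2L, and the readthrough transcript NDUFC2-KCTD14. MV4-11 is a human myelomonocytic leukaemia line that carries an MLL fusion and an activated FLT3. By the labels there were 9 RNA-seq libraries of cells treated for 18 h: 3 with DMSO, 3 with JB170 at a dose of 100 nM and 3 with alisertib at 1000 nM. Alisertib inhibits the kinase activity of Aurora A, and JB170 is a degrader of Aurora A built from alisertib and a ligand of cereblon. All groups share the cell line, medium and time, and DMSO is the control of every comparison. The doses of JB170 and alisertib differ, so their values are set side by side and not compared.

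The deposited table holds 4 comparisons, with JB170, A1000, A100 and MK. A1000 was read as alisertib at 1000 nM from its dose. No label names a group for A100 or MK, so neither their compound nor their dose is stated here, and their values stand as those of the columns. Every log2 fold change below is treated minus DMSO. That direction was inferred, since the values deposited for JB170 run against those of the others (Pearson's r over 13410 genes of -0.49 with A1000, -0.53 with A100 and -0.45 with MK, against 0.49 to 0.53 among the other 3). The columns were turned so that the mitotic genes CCNB1, PLK1, CDC20 and HMMR, which are known to accumulate when Aurora A is inhibited, lay above 0. With JB170 these genes stood at only 0.06 to 0.20, so its direction rests mainly on its correlation with the other columns. Were 1 column read the other way, all its directions would turn. The 4 comparisons appear to share the DMSO libraries, so a like value of a gene in several of them is not independent evidence. Values per library were not analysed here and the depth is unknown, so errors are approximate standard errors (SE) worked out from the authors' fold change and p-value. Whether replicates were separate cultures is not stated, so the spread behind the authors' p-values may be technical. Of 12 markers of myelomonocytic leukaemia cells 11 were in the table (CEBPA is not analysed here), from FLT3 at a mean of 9.88 log2 CPM (CPM scales counts to the library's total) down to ITGAM at 1.95 and HOXA9 at 1.41. Of 13 markers of other cell types 4 were listed, between 0.28 and 2.80 log2 CPM, a range that also holds ITGAM and HOXA9.

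The respiratory chain passes electrons from NADH (complex I) and succinate (complex II) through complex III and cytochrome c to oxygen (complex IV) and pumps protons, whose return drives the ATP synthase. A few subunits are made from mitochondrial DNA and the rest, described here, from nuclear genes. Many of these nuclear promoters carry sites for nuclear respiratory factor 1 (NRF1), for ETS factors such as GABP and for YY1. NRF1 was first described as a regulator of cytochrome c. Many acute myeloid leukaemia cells rely on oxidative phosphorylation, and cytochrome c also triggers apoptosis once it leaves the mitochondrion.

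Promoters are shown for the genes the results turn on: NDUFS7 and CYCS, the members that passed the authors' threshold, and SDHA, a catalytic subunit that stayed near 0 in every comparison. Each runs 5′ to 3′ from 250 bases before to 50 after the start site given by RefSeq on GRCh38.p14. Capitals mark the letters searched for on both strands: NRF1 (CGCANGCG), ETS (CCGGAAG), the half-site of cyclic AMP response elements (TGACGT) and YY1, whose letters are the second run of capitals in NDUFS7. The NDUFS7 window is chr19:1383657-1383956 on the plus strand, that of CYCS chr7:25125211-25125510 on the minus strand, and that of SDHA chr5:218070-218369 on the plus strand.
NDUFS7: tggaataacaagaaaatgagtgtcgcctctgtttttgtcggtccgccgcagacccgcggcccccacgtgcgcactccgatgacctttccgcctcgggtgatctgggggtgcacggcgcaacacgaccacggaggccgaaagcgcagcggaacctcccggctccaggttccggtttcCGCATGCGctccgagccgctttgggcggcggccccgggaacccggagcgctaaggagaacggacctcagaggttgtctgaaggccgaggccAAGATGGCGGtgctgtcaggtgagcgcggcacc
CYCS: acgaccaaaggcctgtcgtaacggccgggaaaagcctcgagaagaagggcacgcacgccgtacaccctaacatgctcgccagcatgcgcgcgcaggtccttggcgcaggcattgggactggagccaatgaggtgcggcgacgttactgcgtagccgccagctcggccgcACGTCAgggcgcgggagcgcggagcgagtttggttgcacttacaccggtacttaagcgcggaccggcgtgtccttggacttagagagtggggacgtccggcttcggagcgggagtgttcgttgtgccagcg
SDHA: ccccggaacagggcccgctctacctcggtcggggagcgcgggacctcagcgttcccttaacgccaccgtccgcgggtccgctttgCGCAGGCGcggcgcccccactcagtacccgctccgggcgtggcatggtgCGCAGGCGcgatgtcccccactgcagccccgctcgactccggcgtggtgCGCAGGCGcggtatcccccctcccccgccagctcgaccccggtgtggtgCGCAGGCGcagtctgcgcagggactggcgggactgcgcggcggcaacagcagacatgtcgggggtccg
The NDUFS7 window holds the NRF1 letters 74 bases before the start site (at -74) and the YY1 letters 17 bases after it. In the CYCS window a half-site on the other strand (ACGTCA) begins at -81, and the NRF1 letters were not found as spelled. The SDHA window holds the NRF1 letters 4 times, at -165, -116, -67 and -18. Promoters were matched for 56 of the 72 members. The NRF1 letters were in 18 of these (32.1%), against 10.6% of the 27305 promoters of the same length. ETS letters were in 16 (28.6%, against 10.7%), YY1 letters in 6 (10.7%, against 1.28%), the half-site in 11 (19.6%, against 8.32%) and the SP1 letters GGGCGG, which can overlap the others and are not in capitals, in 33 (58.9%, against 44.6%). The 27305 promoters were not limited to genes of the table or matched for base composition, so these excesses may not be particular to the members. A match of letters is a description of the window and not a bound site.

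Few of these genes passed a test, and their changes were small. With 1000 nM alisertib 2 of 72 fell and none rose. That is 2.78% of the members, against 5.92% of all genes called in either direction and 2.83% called lower. The members were more abundant than most genes, with a median of 6.86 log2 CPM against 4.75 over all genes. Of the 3842 genes whose mean reached 6 log2 CPM, 9.34% were called in either direction, 187 of the 3842 lower and 172 higher. The 2.83% of all genes called lower is thus below the rate among abundant genes and is not matched to the members' abundance. The 2 members called were NDUFS7 and CYCS. None of the 72 was called with JB170 (0.0298% of all genes), in the column A100 (1.3%) or in the column MK (0.47%). At an unadjusted p under 0.05 the members numbered 3 with JB170, 7 with alisertib, 8 in A100 and 3 in MK. As shares of the members these are 4.17%, 9.72%, 11.1% and 4.17%, beside 3.02%, 17.6%, 11.6% and 8.65% of all genes. The 3, 7 and 8 were all lower, where 1.63%, 8.52% and 5.3% of all genes were lower at that p. The 3 in MK were all higher, where 4.06% of all genes were. With alisertib and in MK the members' shares were thus near those of all genes in that direction. They were below the 17.6% and 8.65% of all genes in either direction. The sets also overlap and are not separate evidence: NDUFS7 was among the 3, the 7 and the 8, and CYCS and UQCRFS1 among the 7 and the 8.

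What differed between the columns was where the middle of the group lay. The median over the 72 members was -0.03 with JB170, -0.04 with alisertib and -0.10 in A100, but 0.13 in MK, beside medians over all genes of at most 0.01 in size. With JB170 25 of the 72 lay above 0 (34.7%, against 51% of all genes), and with alisertib also 25 (34.7%, against 51.2%). In A100 17 lay above 0 (23.6%, against 50.7%), and in MK 60 did (83.3%, against 49.9%). Short transcripts of other genes shared this: among other genes whose mean reached 6 log2 CPM, 83.4% lay above 0 in MK below 1000 bases and 75.7% from 1000 to 2000, and 31.1% and 30.5% in A100. In the same 2 classes 32.5% and 32.6% of these other genes lay above 0 with JB170, and 41.1% and 44.3% with alisertib. Long transcripts of other genes did not share it: from 4000 bases 40.9% lay above 0 in MK, 67.3% in A100, 55.6% with alisertib and 62.1% with JB170. Of the 9 members of that length and abundance 88.9%, 22.2%, 11.1% and 55.6% did, in the same order. After the median of the length class was taken off, the members of that abundance had a median of 0.05 in MK, from 0.15 before. These shares are descriptions with no test, since the genes share libraries and may move together. The changes themselves were narrow: 66 of the 72 lay within 0.2 of 0 on the log2 scale with JB170, 61 with alisertib, 63 in A100 and 52 in MK. A member of median error, among those whose mean reached 3 log2 CPM, needed a log2 change of about 0.27 with alisertib, 0.43 with JB170, 0.31 in A100 and 0.50 in MK to be called. Shifts of the size of these medians could therefore not have been called gene by gene.

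**Figure D1:**
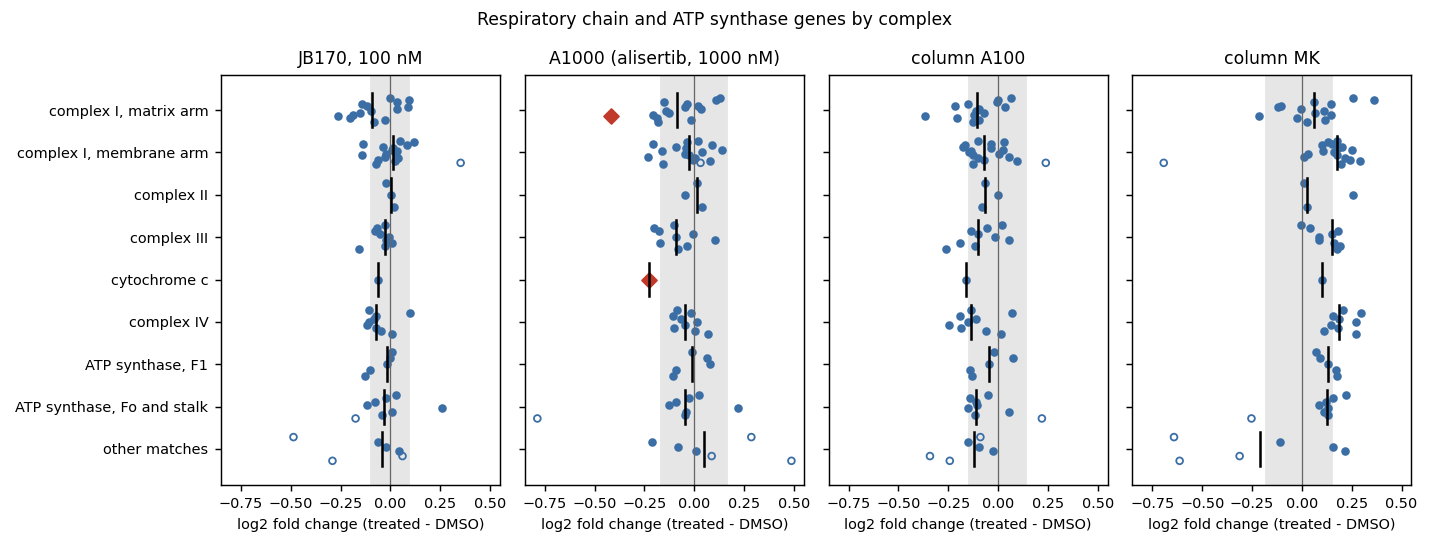
Log2 fold change (treated minus DMSO, horizontal axis) of each of the 72 genes by complex in the 4 comparisons. Filled points mark a mean log2 CPM of 3 or more, open points less; red diamonds passed an adjusted p of 0.05, black bars are medians of the row and the grey band spans the middle quartiles of all genes. NDUFS7 (-0.42) and CYCS (-0.23) are the red diamonds with alisertib, and nearly all filled points of the MK panel lie to the right of 0.

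Complex I, the NADH dehydrogenase, had 31 members in the table, 14 of its matrix arm and 17 of its membrane arm. NDUFS7 (ENSG00000115286), which GENCODE places at chr19:1383527-1395589 of GRCh38 (plus strand), encodes the core subunit that holds the iron-sulphur cluster N2, the last before ubiquinone. It fell by 0.42 with alisertib in the authors' deposited table (0.75-fold, approximate SE 0.13, adjusted p = 0.0342). The authors' deposited table gave NDUFS7 at -0.26 with JB170 (SE 0.13, p = 0.0451, adjusted p = 1) and at -0.37 in A100 (SE 0.13, p = 0.00560, adjusted p = 0.180). In MK the authors' deposited table gave -0.21 (SE 0.17, adjusted p = 0.810), the lowest value there among the 67 members whose mean reached 3 log2 CPM. NDUFS7 thus lay below 0 in all 4 columns, and its approximate 95% interval excluded 0 in all but MK. The interval is worked out from the p-value, so it only restates an unadjusted p under 0.05 and adds no evidence. Genes of the opposite strand, AC005329.3 and AC005329.1, overlap it, and whether reads were counted by strand is not stated.

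NDUFS8, which carries 2 iron-sulphur clusters next to NDUFS7, stood at -0.20 with JB170 (p = 0.05), -0.19 with alisertib (p = 0.0666), -0.21 in A100 (p = 0.0471) and -0.02 in MK (p = 0.879) in the authors' deposited table. The accessory subunit NDUFS6, which binds zinc, stood at -0.19 with JB170 (p = 0.0301) and -0.21 with alisertib (p = 0.0134, adjusted p = 0.148) in the authors' deposited table. In MK it lay on the other side of 0, at 0.15 (p = 0.268, in the authors' deposited table). NDUFS6, NDUFS7 and NDUFS8 were the 3 members with an unadjusted p under 0.05 with JB170, where that of NDUFS8 reads 0.05 only after rounding up. NDUFS3, a core subunit of the same arm, stood at -0.14 with alisertib in the authors' deposited table. Of the NADH-oxidizing module, the flavoprotein NDUFV1 stood at -0.02, NDUFV2 at -0.18 and the large iron-sulphur subunit NDUFS1 at -0.05 with alisertib in the authors' deposited table. None of these was past the threshold in any column.

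The medians of the matrix and membrane arms of complex I differed, as a description, but their middle quartiles overlapped in every column. With alisertib these quartiles ran from -0.17 to 0.01 and from -0.09 to 0.03. In MK they ran from -0.02 to 0.14 and from 0.11 to 0.20. The matrix arm had a median of -0.09 with JB170, -0.09 with alisertib, -0.10 in A100 and 0.06 in MK. The membrane arm had medians of 0.01, -0.03, -0.07 and 0.17 in the same order, and 16 of its 17 genes lay above 0 in MK. Its exception, NDUFC2, stood at -0.69 in MK and 0.35 with JB170 (p = 0.553 and 0.805, in the authors' deposited table) at a mean of 0.39 log2 CPM. The annotation places it on the same strand as the readthrough gene NDUFC2-KCTD14 (mean -0.03 log2 CPM), and the counting of reads that such genes share is not stated. The identifier listed as NDUFA7, counted in the matrix arm, overlaps CD320 and a separate gene named NDUFA7 on its own strand. Which of these genes its values describe is uncertain. The highest complex I value with alisertib was that of NDUFB11, a small membrane subunit, at 0.14 (p = 0.133, in the authors' deposited table). NDUFA2, a thioredoxin-like accessory subunit, had the smallest p of the members in MK, 0.36 (SE 0.16, p = 0.0216, adjusted p = 0.461, in the authors' deposited table).

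Complex II, the succinate dehydrogenase of the citric acid cycle, had 3 members. The flavoprotein SDHA stood at -0.02 with JB170, 0.01 with alisertib, -0.07 in A100 and 0.01 in MK in the authors' deposited table. Its SE was 0.07 with alisertib, 0.08 with JB170 and in A100, and 0.13 in MK. With alisertib its approximate 95% interval ran from -0.13 to 0.16. The membrane anchor SDHC stood at 0.02, 0.04, -0.08 and 0.02 in the same order in the authors' deposited table. SDHB, the iron-sulphur subunit, was near 0 with JB170 and in A100 (0.00 in each), at -0.05 with alisertib and at 0.26 in MK (SE 0.13, p = 0.0531, in the authors' deposited table). Complex II was thus near 0 everywhere save for SDHB in MK, which did not pass.

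Complex III, the cytochrome bc1 complex, had 9 members, of which 8 lay below 0 with JB170, 8 with alisertib, 7 in A100 and 1 in MK. Its medians were -0.03, -0.09, -0.10 and 0.15. With alisertib the small subunits UQCR11 (-0.18, p = 0.0276) and UQCR10 (-0.20, p = 0.0330) and the Rieske iron-sulphur protein UQCRFS1 (-0.17, p = 0.0404) had an unadjusted p under 0.05 in the authors' deposited table, where their adjusted p-values ran from 0.228 to 0.281. In A100 the small subunit UQCRQ had the lowest value of the complex, -0.26 (SE 0.09, p = 0.00516, adjusted p = 0.170, in the authors' deposited table), and it was also the lowest with JB170, at -0.16. The core protein UQCRC2 stood at 0.10 and UQCRC1 at -0.09 with alisertib in the authors' deposited table. Cytochrome c1 (CYC1), which hands electrons to cytochrome c, stood at -0.10 with alisertib and -0.01 in MK in the authors' deposited table, the only member of the complex that did not lie above 0 there.

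CYCS (ENSG00000172115), which GENCODE places at chr7:25120091-25125361 of GRCh38 (minus strand), encodes cytochrome c, the mobile carrier between complexes III and IV. It fell by 0.23 with alisertib in the authors' deposited table (0.85-fold, SE 0.08, adjusted p = 0.0492). In A100 it stood at -0.16 (SE 0.08, p = 0.0374, adjusted p = 0.421, in the authors' deposited table). For JB170 the authors' deposited table gave -0.06 (SE 0.08) and for MK 0.10 (SE 0.13), and neither was called. CYCS is a gene with many processed copies: the GENCODE annotation lists 40 CYCSP pseudogenes, of which 2 are rows of the table, and the treatment of reads that match several places is not stated.

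**Figure D2:**
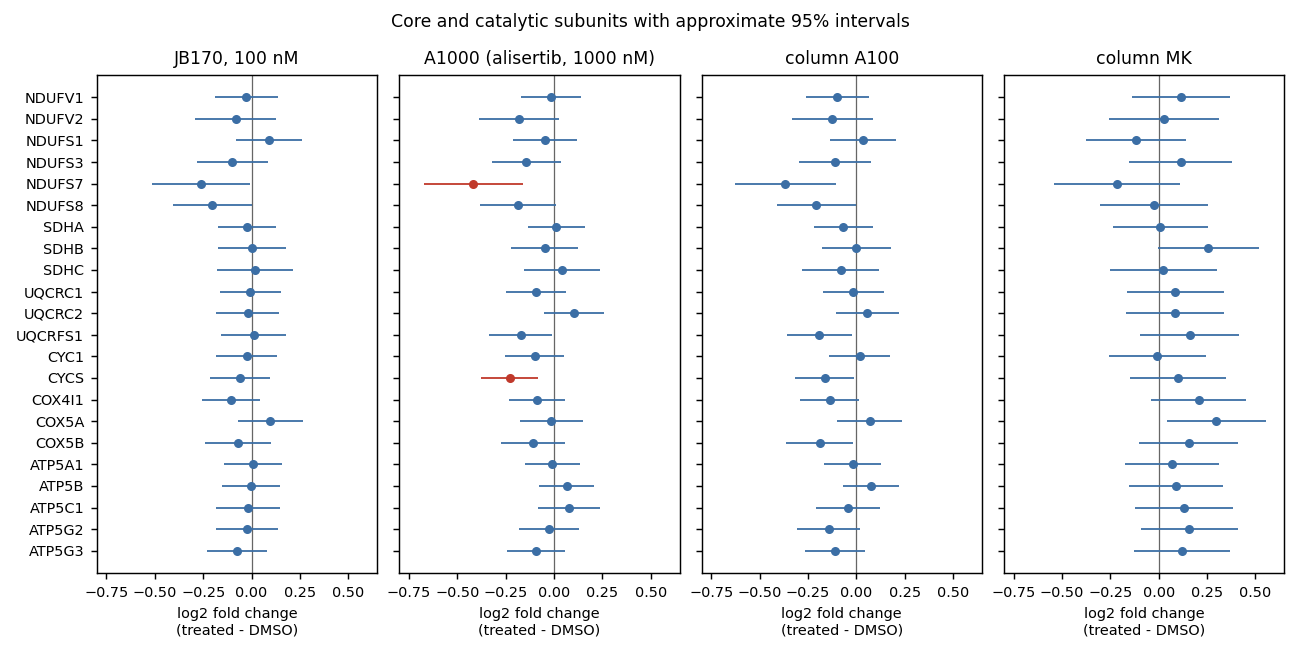
Log2 fold change (treated minus DMSO, horizontal axis) of 22 core and catalytic genes in the 4 comparisons, with approximate 95% intervals worked out from the authors' p-values; red marks an adjusted p under 0.05. With alisertib only NDUFS7 (-0.67 to -0.16) and CYCS (-0.38 to -0.08) are red; the intervals in MK are the widest.

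Complex IV, cytochrome c oxidase, had 9 members here, NDUFA4 included, which is now assigned to this complex. Its medians were -0.07 with JB170, -0.05 with alisertib, -0.14 in A100 and 0.19 in MK, where all 9 lay above 0. COX5A, a subunit on the matrix side, had the smallest p of the complex in MK at 0.30 (SE 0.13, p = 0.0218, adjusted p = 0.461, in the authors' deposited table), followed by COX6C at 0.27 (p = 0.0369, in the authors' deposited table). COX5A was also the highest of the complex with JB170, at 0.10, and COX7A2 the lowest, at -0.12, in the authors' deposited table. With alisertib the 9 ran from -0.11 (COX5B) to 0.07 (NDUFA4) in the authors' deposited table. In A100 3 members had an unadjusted p under 0.05. COX7A2, the non-muscle form of subunit VIIa, stood at -0.24 (SE 0.09, p = 0.00499, adjusted p = 0.167, in the authors' deposited table). COX5B, which binds zinc, stood at -0.19 (p = 0.0328) and COX7B at -0.19 (p = 0.0423) in the authors' deposited table. The regulatory subunit COX4I1 stood at -0.11 with JB170, -0.09 with alisertib, -0.14 in A100 and 0.21 in MK by the authors' deposited table. The related COX7A2L, which links complexes III and IV, was at 0.04, 0.01, -0.03 and 0.22 in that order in the authors' deposited table.

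The ATP synthase had 13 members, 5 of the catalytic F1 head and 8 of the membrane ring, the stalk and their neighbours. Their medians were -0.02 with JB170, -0.04 with alisertib, -0.11 in A100 and 0.13 in MK, and none had an unadjusted p under 0.05 in any column. The catalytic subunit ATP5B stood at 0.07 with alisertib (approximate 95% interval -0.08 to 0.21) and ATP5A1 at -0.01 (-0.15 to 0.13) in the authors' deposited table. The central shaft ATP5C1 stood at 0.08 with alisertib and 0.13 in MK in the authors' deposited table. ATP5G2 and ATP5G3, which encode the same mature c subunit of the rotating ring, stood at -0.03 and -0.09 with alisertib, -0.14 and -0.11 in A100, and 0.16 and 0.12 in MK in the authors' deposited table. The smallest p in MK belonged to ATP5F1, the b subunit of the stalk, at 0.22 (SE 0.13, p = 0.0782, in the authors' deposited table). ATP5I, at a mean of 3.95 log2 CPM, was the highest of the complex with JB170 (0.26, p = 0.166) and with alisertib (0.22, p = 0.228) in the authors' deposited table. The lowest with alisertib was ATP5O, the subunit that joins stalk and head, at -0.79 (p = 0.112, in the authors' deposited table), at a mean of 1.46 log2 CPM and on the same strand as an overlapping gene, AP000311.1. The 5 of the 72 members with a mean below 3 log2 CPM were ATP5O, NDUFC2, NDUFC2-KCTD14, ATP5S and NDUFA4L2, and none was called in any column.

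**Figure D3:**
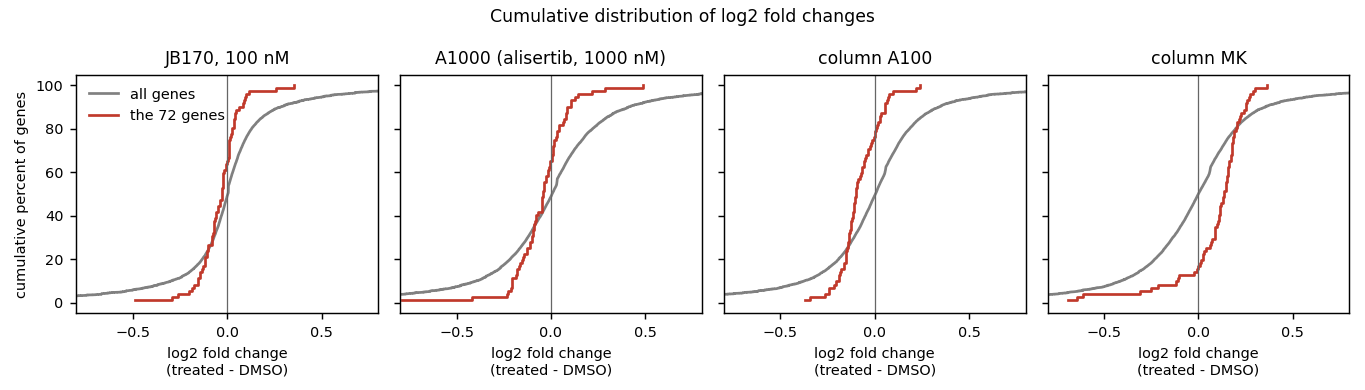
Cumulative percent of genes (vertical axis) by log2 fold change (treated minus DMSO, horizontal axis) for the 72 genes (red) and all 13410 genes (grey). At its middle the red line runs left of the grey one in A100, where the median is -0.10, and right of it in MK, where the median is 0.13. The lines cross elsewhere. In A100 the first quartile is -0.14 for the 72 genes and -0.15 for all genes. In MK the highest of the 72 genes is at 0.36, while all genes reach 4.51.

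Other genes of the pathway were counted in the same way. Of 56 assembly factors of the chain 51 were in the table, and with alisertib 4 fell, none rose and 47 did not pass (median -0.11). The 4 are 7.84% of the 51, beside 5.92% of all genes called in either direction and 2.83% called lower. In the authors' deposited table NDUFAF8 (listed as C17orf89), an assembly factor of complex I, fell by 0.43 (SE 0.13, adjusted p = 0.0174). CMC2, a complex IV factor, dropped by 0.39 with an adjusted p of 0.0201 in the authors' deposited table. UQCC2 (listed as MNF1), which is needed for cytochrome b, decreased by 0.37 and the complex I factor ECSIT decreased by 0.31 in the authors' deposited table, where their adjusted p-values were 0.0386 and 0.0434. No assembly factor was called with JB170, in A100 or in MK, with medians of -0.03, -0.07 and 0.06. Of 19 measured regulators of mitochondrial transcription and biogenesis 1 fell with alisertib (5.26%, near the 5.92% of all genes) and 17 of the 19 lay below 0 (89.5%, against 48.8% of all genes, median -0.11). That gene was NRF1, which fell by 0.39 in the authors' deposited table (SE 0.12, adjusted p = 0.0278). NRF1 stood at -0.34 with JB170 (p = 0.00485, adjusted p = 1), -0.32 in A100 (p = 0.00881, adjusted p = 0.221) and -0.36 in MK (p = 0.0216, adjusted p = 0.461) in the authors' deposited table. TFAM, which packages mitochondrial DNA, stood at -0.11 with alisertib, and PPARGC1B, a coactivator, at -0.16 by the authors' deposited table, and neither was called. At an unadjusted p under 0.05, 4 of the 19 were lower with alisertib and none higher (21.1%, against 17.6% of all genes in either direction and 8.52% lower). Besides NRF1 these were GABPB2 (-0.36), ESRRA (-0.30) and TWNK (listed as C10orf2, -0.23), none of them called. Among subunits with a matched promoter, the 17 with the NRF1 letters had a median of -0.05 with alisertib and the 35 without them -0.05 as well. In MK the medians were 0.11 and 0.15. The split rests on 1 exact run of letters and puts CYCS among the 35. It therefore cannot tell targets of NRF1 from other genes, and a response of its targets was not tested.

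Among genes whose mean reached 6 log2 CPM, the median change differed between classes of transcript length. The longest annotated transcript had a median of 1626 bases over the 72 members and 3510 over all genes. Among these genes other than the members, the median in MK was 0.16 below 1000 bases, 0.10 from 1000 to 2000, 0.04 from 2000 to 4000 and -0.04 above. The members of the same classes had medians of 0.18, 0.13, 0.16 and 0.10, over 14, 17, 15 and 9 genes. In A100 the order was opposite: other genes had medians of -0.05, -0.05, -0.00 and 0.05, and the members -0.12, -0.04, -0.10 and -0.08. Taking off the median of the other genes of each class left a median of 0.05 in MK, -0.07 in A100, -0.03 with alisertib and -0.01 with JB170, over the members whose mean reached 6 log2 CPM. Without that step the medians of the same members were 0.15, -0.10, -0.04 and -0.03. The classes rest on the longest annotated transcript, which need not be the one expressed. By that measure UQCRB (5575 bases) and ATP5G3 (5484 bases) fall in the longest class. Members may therefore be set against other genes of unlike length, and the medians left after this step carry that limit. The part that length has in the changes of single members was not tested.

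**Figure D4:**
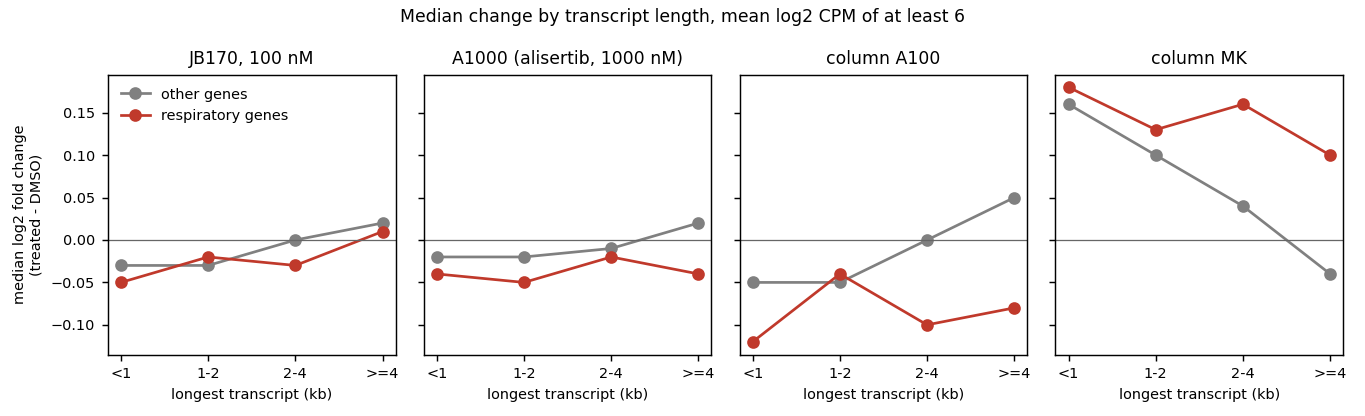
Median log2 fold change (treated minus DMSO, vertical axis) by the length of the longest transcript (horizontal axis, kb) for respiratory genes (red) and other genes (grey) whose mean reached 6 log2 CPM. In MK the grey line falls from 0.16 to -0.04 with length while the red one ends at 0.10.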

How the data were processed

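Poly(A) RNA was sequenced from directional libraries, per the labels' protocols. Per the submitters' processing notes, FastQC, TopHat2 2.1.1, Bowtie2 2.3.2 and the build hg19 were used. How reads were counted, normalized and tested is not given here. Per the file headers, the authors' deposited table holds log2 fold changes, p-values and adjusted p-values of DMSO against each treatment, and a mean log2 CPM of libraries it does not name. Repeated entries (80 rows of 5 identifiers) were reduced to 1 each, leaving 13410 genes. The adjusted p-values fit 16812 tests, of which 3402 are not analysed here. No test was computed: a gene was called at the authors' adjusted p under 0.05. All columns but JB170 were multiplied by -1. As a check, the implied error of genes with few reads and a log2 change of at least 1 was set against its sign. The implied error was larger on the positive side as deposited by 0.40 on the log2 scale in A1000, 0.31 in A100 and 0.29 in MK, and by 0.01 in JB170, where it gives no direction.

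The approximate SE is the fold change divided by the z of its p-value where z is at least 1, and otherwise is interpolated between the medians of 60 bins by mean log2 CPM; it was checked on simulated data. Intervals cover 95% under a normal distribution. Positions and transcript lengths come from GENCODE 29 (GRCh38), promoters from RefSeq, matched by current symbol. Python 3.11.15, pandas 2.3.3 and scipy 1.17.1 were used. Named were members called, the highest and lowest subunit of each complex with alisertib and JB170, the 2 smallest p-values per complex, core subunits (not all are reported here) and paralogues; other members and regulators were added with their values known. Members and lists were chosen with earlier results of these data known.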

Additional observations from a re-analysis of the deposited data

How the results depend on the processing

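Of 41 alternatives, 40 kept each count of called members within 1.5 times and each median within the members' median approximate error. The exception was the number called with alisertib, which was 2 at an adjusted p under 0.05 and 0 at 0.01; it was 2 at 0.1, over the table's genes alone, among genes whose mean reached 3 log2 CPM and with subunits only. Read in the direction of the other columns as deposited, the median with JB170 would be 0.03 in place of -0.03. This change of sign counts as kept. The error allowed was 0.09 with JB170, with alisertib and in A100, and 0.14 in MK. That is about the size of the medians or larger, so keeping a median is a loose criterion. Where the main count was 0, the stricter threshold and the subsets could only return 0. The length classes and the minimum of 6 log2 CPM were chosen after seeing the data. Over members of that level the median in MK was 0.15 without the length correction and 0.05 with it. No paired analysis was possible because the table of comparisons carries no replicate numbers, and for the same reason no replicate was left out. Depth per library is unknown; small shifts shared by many genes could not be called singly.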

Other observations

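Of 24 measured genes of the citric acid cycle and pyruvate entry, 2 rose and 1 fell with alisertib (12.5% called, against 5.92% of all genes; no test of the list was made). PDK2, a kinase that inhibits pyruvate dehydrogenase, rose by 0.61 (SE 0.18, adjusted p = 0.0216) and MPC2 (listed as BRP44), a subunit of the mitochondrial pyruvate carrier, by 0.47 (SE 0.13, adjusted p = 0.00899) in the authors' deposited table. OGDH, a subunit of the 2-oxoglutarate dehydrogenase complex, fell by 0.34 (SE 0.08, adjusted p = 0.00299) in the authors' deposited table. In MK, PDK2 stood at 0.56 (p = 0.00883, adjusted p = 0.332) and OGDH at -0.35 (p = 0.00830, adjusted p = 0.322) in the authors' deposited table. Of 21 measured carriers, import and cristae genes 1 fell with alisertib, TOMM40, the channel of the outer membrane, which decreased by 0.32 (SE 0.08, adjusted p = 0.00401, in the authors' deposited table), and 16 of the 21 lay below 0 (76.2%, against 48.8% of all genes). That 1 gene is 4.76% of the list, near the 5.92% of all genes. No gene of these lists was called in the other 3 columns.

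The 27 pseudogenes of these families that the rule left out had a median of 0.12 in MK, 0.02 in A100, -0.02 with alisertib and 0.01 with JB170, and none was called. Their mean log2 CPM ran from 0.16 to 8.29, and reads of near-identical copies cannot be placed with certainty.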
